A study of Mus musculus with 12 samples.

Results

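The genes described here are 10 that build, bind or travel on the microtubules of neurons: the stathmins Stmn1, Stmn2, Stmn3 and Stmn4, the beta-tubulins Tubb3 and Tubb2b, the microtubule-associated proteins Map2, Mapt (tau) and Dcx (doublecortin), and the kinesin heavy chain Kif5c. They were taken by symbol from the 22738 gene rows of a raw count table, each matched a single row, and all 10 were among the 17426 genes expressed highly enough to be tested. They were chosen by function, with results of these data already known, among them the lower counts of Stmn3 and Map2 after entinostat. Their levels and fold changes under entinostat are therefore given as a description, with the background share of all genes beside the counts.

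Microtubules are hollow filaments of alpha- and beta-tubulin that grow and shrink from their ends. Stathmins bind free tubulin dimers and promote disassembly; Stmn1 is found in the cytosol of most dividing cells, while Stmn2, Stmn3 and Stmn4 carry a membrane anchor and are largely neuronal. Tubb3 and Tubb2b are the beta-tubulins of neurons and their precursors, Map2, tau and doublecortin bind along the filament and stabilise it, and Kif5c carries cargo along axons. Small cell lung cancer is a neuroendocrine tumour whose cells express many neuronal genes, this set among them.

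RNA-seq was done on flash-frozen, dissected lung tumours of the RPM mouse model of small cell lung cancer, 12 libraries in 4 groups of 3. All groups carried the genotype Rb1/Trp53/MycT58A and received Ad5CGRP-Cre, an adenovirus instilled into the airway in which the promoter of the neuroendocrine gene CGRP drives Cre; the breeders were Rb1 fl/fl, p53 fl/fl and Myc lsl/lsl T58A, and the protocol describes induction at 8 weeks of age. The combination group was given entinostat, a benzamide inhibitor of class I histone deacetylases, by mouth at 15 mg/kg daily for 28 days together with an antibody against the T cell receptor PD-1 at 10 mg/kg for 4 weeks. The entinostat group received the inhibitor alone at that dose, the anti-PD-1 group the antibody alone, and the control group neither. Which of the oral vehicle and the isotype antibody the control mice had is not stated. The combination libraries carry a treatment tag for the antibody only, but titles that name both agents, and were grouped by title. Age at sampling is not given. Each library's column name holds a number of its own, but no label says that it stands for a mouse. The p-values therefore rest on the spread among these libraries, which may in part be technical.

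Total counts were 31295987 to 36146798 in combination, 31987261 to 40469275 in entinostat, 34107018 to 37076865 in anti-PD-1 and 40534618 to 54001886 in control libraries. The neuroendocrine label held in all 12 libraries, with Insm1, a transcription factor of neuroendocrine cells, at 39.1 to 101 and chromogranin A (Chga) at 30.6 to 129.7 CPM (counts scaled to a common library size with TMM factors). Peripheral neurons and Schwann cells are among the other lung cells that could hold some of these transcripts. Markers that define them included Dbh, with at most 4 counts in any library, and Sox10, with at most 22. A single library stood apart for the 10 microtubule genes. Control 1 was the highest of the 12 for 10 of 10 genes, and it was also the lowest of the 12 for a list of 16 alveolar epithelial markers, at a mean log2 CPM of -0.999. Combination 1 was the lowest library for 9 of the 10 genes and the highest for the alveolar list, at 5.00. The part of normal lung tissue in the results below was not tested, and in bulk tumour fewer cells of a type and less RNA per cell cannot be told apart. Fold changes of the 10 genes that use the controls are given with and without control 1.

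The sequence upstream of the transcription start is shown for 4 of the genes because the 10 genes varied together across the tumours. RefSeq's table for GRCm38.p6 held promoters of 5 of them (Stmn3, Tubb3, Map2, Dcx and Kif5c). Capitals mark matches to a motif searched on both strands: CAGATG, an E-box bound by proneural factors, in Stmn3; GGGCGG, the GC box, in Map2 and Tubb3; and TGACGTCA, the cyclic AMP response element, in Kif5c. Bases are counted from the RefSeq start, with -1 the base just before it.
Stmn3, chr2:181314501-181314650, minus strand, bases -150 to -1: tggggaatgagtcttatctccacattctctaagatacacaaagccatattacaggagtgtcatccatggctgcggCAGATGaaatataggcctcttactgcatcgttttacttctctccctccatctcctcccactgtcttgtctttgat
Map2, chr1:66175119-66175268, plus strand, bases -210 to -61: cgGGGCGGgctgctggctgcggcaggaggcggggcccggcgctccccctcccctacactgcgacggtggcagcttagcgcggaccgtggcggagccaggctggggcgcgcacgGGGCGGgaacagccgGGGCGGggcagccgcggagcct
Tubb3, chr8:123411303-123411422, plus strand, bases -250 to -131: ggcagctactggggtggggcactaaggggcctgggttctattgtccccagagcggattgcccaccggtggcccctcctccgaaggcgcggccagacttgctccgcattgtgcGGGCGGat
Kif5c, chr2:49619166-49619285, plus strand, bases -120 to -1: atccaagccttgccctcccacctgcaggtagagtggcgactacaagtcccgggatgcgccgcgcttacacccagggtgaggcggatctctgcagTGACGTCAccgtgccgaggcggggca
The Stmn3 window of 250 bases before the start was 48.8% G and C with 3 CpG dinucleotides and a single CAGATG, at base -75. Map2 had the most GC-rich of these windows, with 81.2% G and C, 34 CpG and 5 GC boxes. Tubb3 followed with 68% G and C, 21 CpG and 2 GC boxes, and Kif5c had 55.2%, 11 CpG, a TGACGTCA at base -26 and a TATAAA at base -220. Dcx, listed with 2 starts, had 41.6% and 44.8% G and C, 3 CpG each and a TATAAA. Over 32851 RefSeq promoter windows of the same length the medians were 52.4% G and C and 6 CpG, and the share with a match was 14.4% for CAGATG, 32.7% for GGGCGG, 1.55% for TGACGTCA and 12.4% for TATAAA. The other motifs searched were CACGTG, bound by Myc (6.02% of windows), CAGCTG (13%) and TTCAGCACC, the left part of the RE1 element bound by Rest (0.301%); none of the 5 genes held these letters in its window. No motif was found in all 5 genes, and a match is a description of letters, not a site.

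Counts rise with transcript length as well as with abundance, so levels of different genes were compared per kilobase. Divided by the length of all annotated exons, Stmn1 averaged 286 CPM per kilobase in the 6 libraries with entinostat and 665 in the 6 without. The level of Stmn3 per kilobase was 39.1 with entinostat and 165 without, and that of Tubb3 was 40.3 with and 153 without. Tubb2b had 28.7 with and 111 without, Stmn2 32.5 with and 87.9 without, and Kif5c 29.7 with and 45.9 without. The lowest levels per kilobase were those of Map2 (16.3 with, 36.2 without), Stmn4 (11.7 with, 35.8 without), Dcx (7.85 with, 18.6 without) and Mapt (7.24 with, 16.4 without). Map2, Mapt and Dcx have transcripts of very different lengths, and the order of the lowest levels depends on the length used. Divided by the median transcript, Map2 had 31.9 with and 71.0 without entinostat, Mapt 20.8 with and 47.2 without, and Dcx 20.1 with and 47.6 without. Stmn4 was then the lowest, at 13.1 with and 39.8 without.

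**Figure D1:**
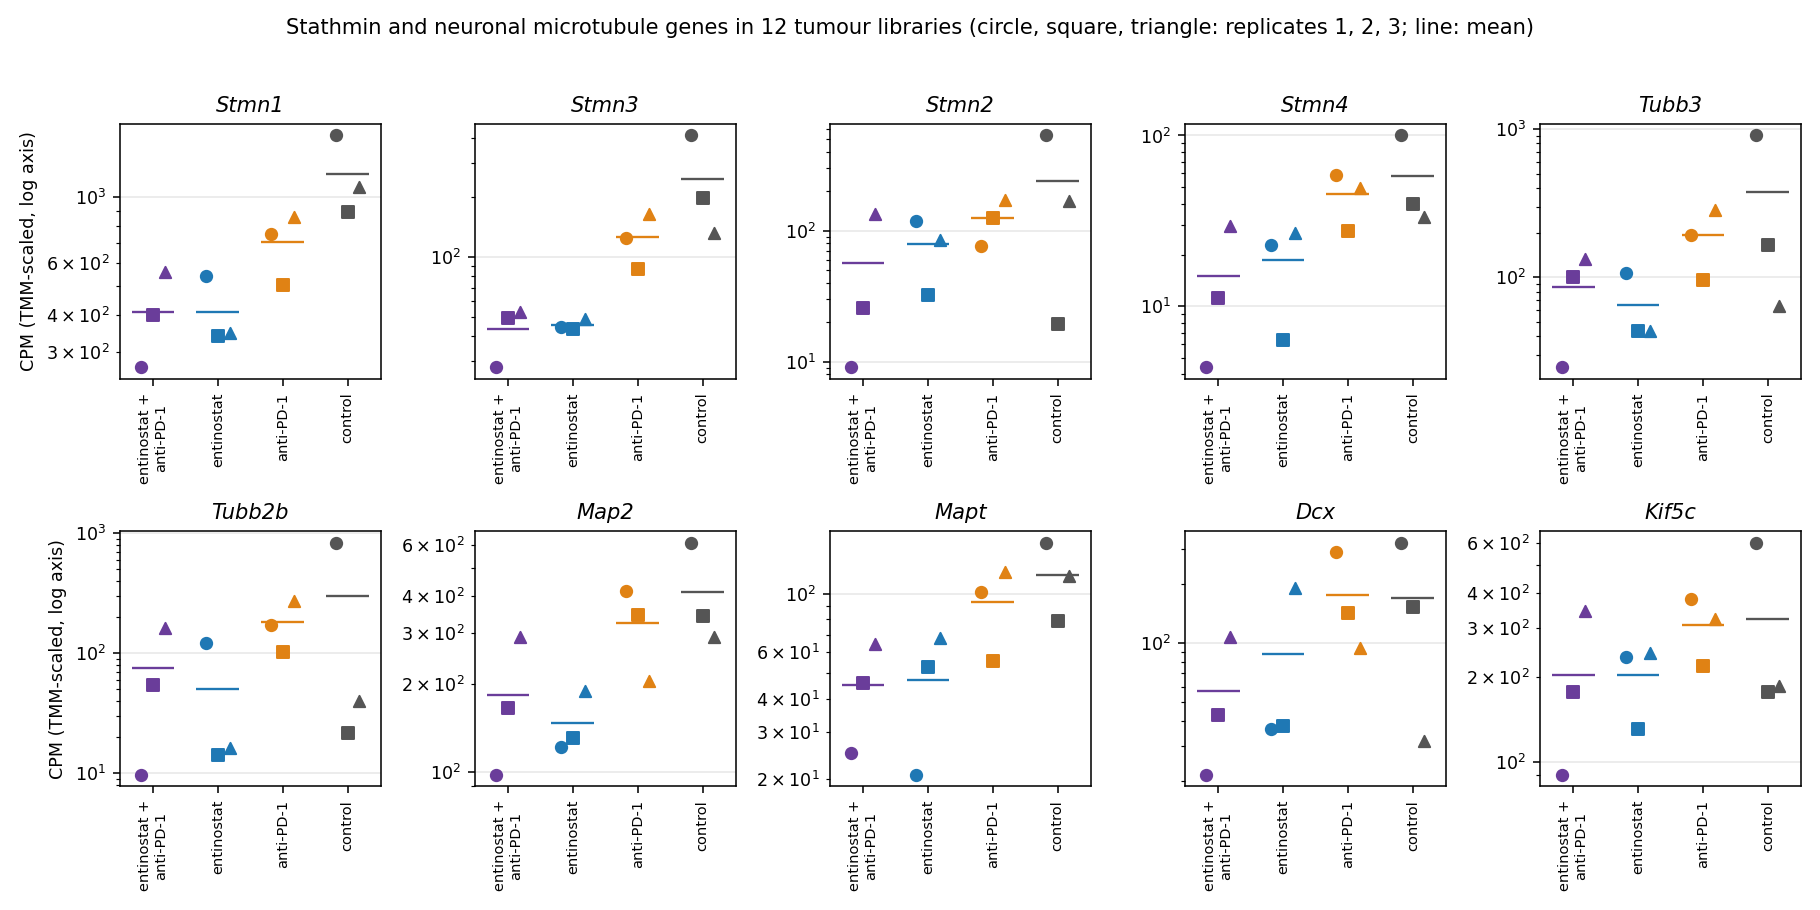
Each panel plots a gene's CPM on a log axis for the 12 libraries, by treatment group, with circles, squares and triangles for replicates 1, 2 and 3 and a line at the group mean. The control circle is the highest point in each panel, at 1620.4 CPM for Stmn1 and 835 CPM for Tubb2b, and Stmn3 is the gene whose 6 entinostat-treated points all lie below the 6 others.

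Stmn3, a membrane-anchored neuronal stathmin, had the largest main effect of entinostat among the 10 genes. It had 27.8, 49.4 and 53.0 CPM in combination, 44.1, 43.5 and 48.4 CPM in entinostat, 125, 87.4 and 166 CPM in anti-PD-1, and 412, 199 and 132 CPM in control libraries. Every library given entinostat was below every library without it, and Stmn3 was the only 1 of the 10 genes for which this held; of all genes tested, 2.32% were lower in this way. The 3 entinostat-only libraries lay within 5 CPM of each other (SD 2.71 around a mean of 45.3), whereas the controls spread by more than their lowest value. The fitted main effect of entinostat, the mean of its effects with and without the antibody, was a log2 fold change of -1.99 (SE 0.28), and -1.70 without control 1.

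Stmn1, the stathmin of proliferating cells, had 266, 399.8 and 560.1 CPM in combination, 539.8, 340.3 and 348 CPM in entinostat, 751, 504 and 861 CPM in anti-PD-1, and 1620.4, 895 and 1082 CPM in control libraries. Neither entinostat-treated group overlapped the controls, but combination 3 and entinostat 1 were above anti-PD-1 2. Of all genes, 15.7% were lower without overlap in entinostat than in control libraries, and 16.7% in combination than in control libraries. The share lower in both was not counted. The main effect was -1.17 (SE 0.23) on the log2 scale, and -1.03 without control 1. Of the 50-base stretches in Stmn1 transcripts, 18.9% occur in another gene, mostly a processed copy, so its count is uncertain by reads that fit both.

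Stmn2, a stathmin of growing axons, was the most variable of the stathmins, at 9.03, 25.6 and 134 CPM in combination, 119, 32.5 and 83.9 CPM in entinostat, 76.3, 125 and 169.9 CPM in anti-PD-1, and 533, 19.5 and 169 CPM in control libraries. Controls alone spanned nearly the whole range, with control 2 below 5 of the 6 entinostat-treated libraries. Its main effect of -1.38 had an SE of 0.74, and the value was -0.70 without control 1. Stmn4, also neuronal, had 4.40, 11.2 and 29.4 CPM in combination, 22.8, 6.32 and 27.1 CPM in entinostat, 58.4, 27.7 and 49.4 CPM in anti-PD-1, and 100.3, 39.8 and 33.1 CPM in control libraries. All 6 entinostat-treated libraries were below the 3 controls, while combination 3 was above anti-PD-1 2. The share of all genes with the 6 below the 3 controls was not counted. The main effect for Stmn4 was -1.61 (SE 0.49), and -1.28 without control 1.

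Within a library the stathmins did not keep a fixed proportion. Stmn3 counts per 100 Stmn1 counts, a ratio that scaling between libraries cannot alter, were 10.4, 12.4 and 9.46 in combination, 8.18, 12.8 and 13.9 in entinostat, 16.6, 17.4 and 19.3 in anti-PD-1, and 25.4, 22.3 and 12.2 in control libraries. The combination and anti-PD-1 groups did not overlap in this ratio, and control 3 was the only library without entinostat inside the entinostat-treated range. The share of other ratios that separate these groups was not counted. Of single genes, 9.25% were lower in combination than in anti-PD-1 libraries without overlap. Nothing is read from the separation, since Stmn3 was known to be lower after entinostat when the genes were listed. Stmn2 per 100 Stmn1 counts was 3.39, 6.40 and 23.9 in combination, 22.1, 9.54 and 24.1 in entinostat, 10.2, 24.9 and 19.7 in anti-PD-1, and 32.9, 2.17 and 15.7 in control libraries, with all 4 groups overlapping.

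Tubb3, the beta-III tubulin used as a neuronal marker, had 24.8, 101 and 132 CPM in combination, 107, 43.3 and 43.8 CPM in entinostat, 194, 96.2 and 286 CPM in anti-PD-1, and 909, 165 and 64.3 CPM in control libraries. Control 1 was 3.17 times the next highest library, and control 3 and anti-PD-1 2 lay inside the entinostat-treated range. The main effect was -1.86 (SE 0.62), and -0.99 without control 1. Tubb2b, a beta-tubulin of neuronal precursors, had 9.72, 54.1 and 161 CPM in combination, 121, 14.1 and 16.2 CPM in entinostat, 173, 103 and 275 CPM in anti-PD-1, and 835, 21.6 and 39.7 CPM in control libraries. The highest library had 85.9 times the CPM of the lowest, the widest range of the 10 genes, and 28.3 times without control 1. Its main effect of -1.93 (SE 0.97) became -0.29 without control 1. Reads of Tubb2b are the least certain of the set, since 36.9% of its 50-base stretches occur in another tubulin gene, Tubb2a among them.

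Map2, which binds microtubules of dendrites, had 98.1, 165 and 289 CPM in combination, 122, 131 and 189 CPM in entinostat, 418, 346 and 206 CPM in anti-PD-1, and 609.7, 342 and 290.1 CPM in control libraries. All entinostat-treated libraries were below all controls, narrowly for combination 3, which was also above anti-PD-1 3. The main effect was -1.15 (SE 0.29), and -0.96 without control 1. Mapt, whose product tau binds axonal microtubules, had 24.9, 46.0 and 64.5 CPM in combination, 20.7, 53.0 and 68.2 CPM in entinostat, 102, 55.6 and 121 CPM in anti-PD-1, and 156, 78.9 and 117 CPM in control libraries. Here too the entinostat-treated libraries lay below the controls, with anti-PD-1 2 among them. For Map2 and Mapt alike, the share of all genes with every entinostat-treated library below every control was not counted. Its main effect was -1.18 (SE 0.33), and -1.05 without control 1.

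Map4, the microtubule-associated protein that most cell types express, is set beside both. It averaged 92.0 ± 27.8 CPM in combination, 92.8 ± 22.3 in entinostat, 108 ± 15.4 in anti-PD-1 and 75.4 ± 28.3 in control libraries (SD, n = 3 each). Per 100 Map4 counts in the same library, Map2 counts were 132, 214 and 233 in combination, 147, 170.4 and 160.1 in entinostat, 340.1, 375 and 188 in anti-PD-1, and 564, 564 and 504 in control libraries. The 3 controls lie above all 9 treated libraries on this ratio. How many other ratios separate the libraries in this way was not counted. Map4 itself was 108 CPM in control 1, against 60.7 and 57.6 CPM in the other 2 controls, so the ratio draws control 1 toward them. It was also 0.52 higher on the log2 scale in anti-PD-1 than in control libraries (SE 0.29, edgeR adjusted p = 0.430), which widens the gap between those groups in the ratio. For entinostat against control Map4 was 0.30 higher (SE 0.29, edgeR adjusted p = 0.559), which widens that gap too. Controls 2 and 3 had less Map4 than every treated library, the lowest of which was combination 1 at 74.5 CPM. In CPM, Map2 was 418 and 346 in anti-PD-1 1 and 2, above 342 and 290.1 in controls 2 and 3. Mapt counts per 100 Map4 counts were 33.5, 59.4 and 51.9 in combination, 24.9, 68.7 and 57.6 in entinostat, 82.7, 60.4 and 110.5 in anti-PD-1, and 144, 130.0 and 203 in control libraries. Again the controls were above all treated libraries, with the same Map4 counts below the line, and entinostat 2 was the only entinostat-treated library above the lowest anti-PD-1 library. In CPM, Mapt was 102 and 121 in anti-PD-1 1 and 3, above 78.9 in control 2.

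**Figure D2:**
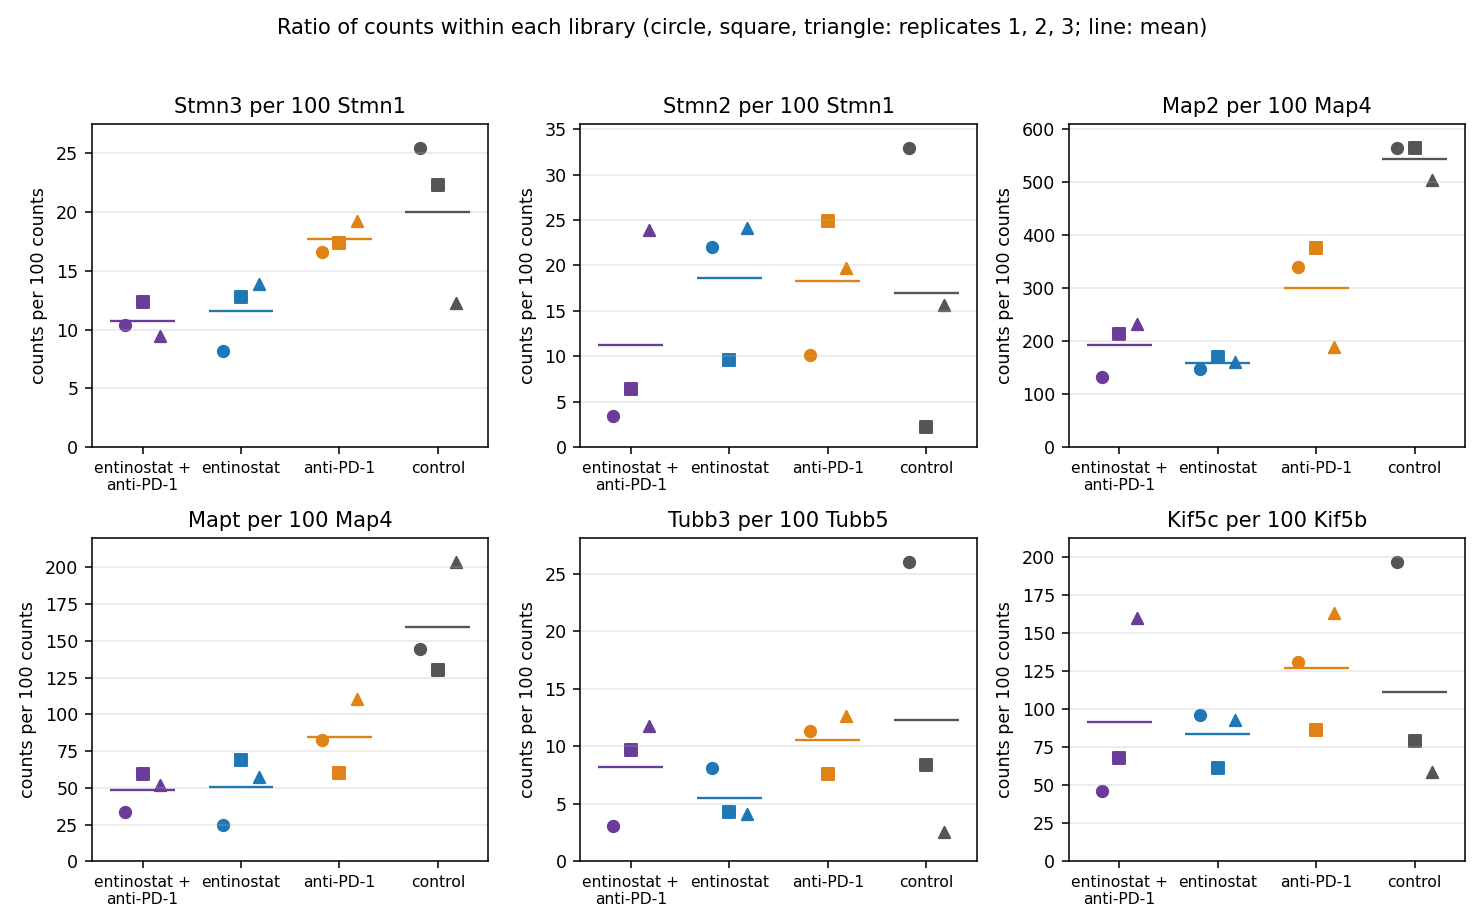
Each panel plots, on a linear axis from 0, the counts of a gene per 100 counts of a related, more widely expressed gene in the same library, with circles, squares and triangles for replicates 1, 2 and 3 and a line at the group mean. Map2 per 100 Map4 counts is 504 to 564 in the 3 controls and at most 375 elsewhere, while Stmn2 per 100 Stmn1, Tubb3 per 100 Tubb5 and Kif5c per 100 Kif5b overlap between groups.

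Dcx, a microtubule-binding protein of migrating neurons, had 21.4, 42.9 and 107 CPM in combination, 36.4, 37.7 and 190.1 CPM in entinostat, 288, 142 and 93.9 CPM in anti-PD-1, and 323, 151 and 31.8 CPM in control libraries. Control 3 was lower than 5 of the 6 entinostat-treated libraries, so the groups overlapped. The main effect was -1.28 (SE 0.62), and -0.84 without control 1. Kif5c, the neuronal heavy chain of conventional kinesin, had the smallest main effect and 90.2, 178 and 343 CPM in combination, 236, 131 and 245 CPM in entinostat, 381, 219 and 323 CPM in anti-PD-1, and 602, 177 and 186 CPM in control libraries. Combination 3 exceeded 4 of the 6 libraries without entinostat. Its main effect was -0.63 (SE 0.38), and -0.21 without control 1. Kif5b, the heavy chain most tissues use, averaged 232 ± 28.7 CPM with and 265 ± 47.9 CPM without entinostat (SD, n = 6 each).

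Over the 6 libraries with and the 6 without entinostat, the fitted log2 fold change was below 0 for all 10 genes, from -1.99 for Stmn3 to -0.63 for Kif5c, with a median of -1.33; the median over all 17426 genes was 0.02. Stmn1, Stmn3, Map2 and Mapt, 4 of the 10, were lower at an adjusted p under 0.05 (edgeR's quasi-likelihood test, Benjamini-Hochberg over all genes), and none higher. By that rule 6.74% of all genes were lower and 3.87% higher; nothing is read from this count, since these values were known when the genes were listed. With each library left out in turn, Stmn1 and Stmn3 met the threshold in 12 of 12 fits, Map2 in 6 and Mapt in 2. Without control 1 only Stmn1 and Stmn3 met it, and 854 of all genes were lower, against 1175 with all libraries.

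**Figure D3:**
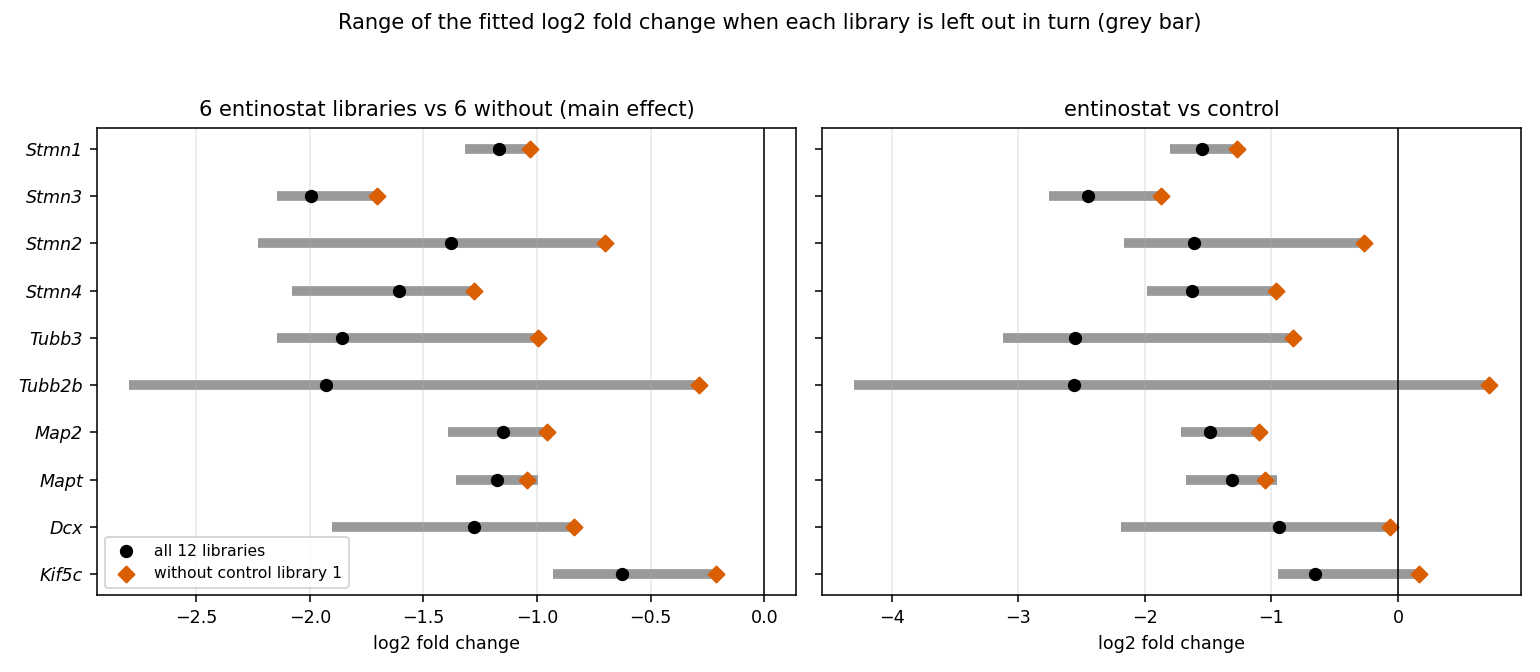
For each gene the black point is the fitted log2 fold change with all 12 libraries, the grey bar its range when each library is left out in turn, and the orange diamond the value without control 1, for the entinostat main effect on the left and entinostat against control on the right. The bar of Stmn3 runs from -2.15 to -1.70 on the left, and that of Tubb2b from -2.80 to -0.29.

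Split by background treatment, entinostat alone against control gave log2 fold changes of -2.45 (SE 0.41) for Stmn3, -1.55 (SE 0.33) for Stmn1 and -1.49 (SE 0.42) for Map2. Stmn2, Stmn4, Tubb3, Tubb2b, Mapt, Dcx and Kif5c ranged from -2.56 to -0.66 in this comparison. Stmn1 and Stmn3 met the threshold, and 3.98% of all genes were lower by it; without control 1 Stmn3 alone met it, at -1.87, with Stmn1 at -1.27 and Map2 at -1.10, and Tubb2b and Kif5c changed sign, to 0.72 and 0.17. When only these 2 groups were fitted, 0 of 16600 genes met the threshold, members included. Without control 1, 194 of all genes were lower by it, against 693 with all libraries. Stmn1, Stmn3, Stmn4, Map2 and Mapt did not overlap between the groups, against 15.7% of all genes lower without overlap.

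The combination against anti-PD-1 asks for the same difference in mice that all had the antibody, and it does not use the controls' levels. Log2 fold changes were -1.54 (SE 0.40) for Stmn3, -0.79 (SE 0.33) for Stmn1, -0.81 (SE 0.41) for Map2 and -1.04 (SE 0.47) for Mapt, and ran from -1.61 to -0.60 over the other 6 genes. The median was -1.15, against 0.05 over all genes. None of the 10 met the adjusted threshold with edgeR, which called 0% of all genes. At an unadjusted p under 0.05, 4 were lower, as were 6.38% of all genes. DESeq2 called Stmn3 alone, and 1.45% of all genes as lower. Stmn3 was the only member whose groups did not overlap, at 27.8 to 53.0 CPM in combination and 87.4 to 166 CPM in anti-PD-1 libraries, and 9.25% of all genes were lower without overlap.

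The combination against control, which shares its control libraries with entinostat against control, gave -2.51 (SE 0.41) for Stmn3, -1.55 (SE 0.33) for Stmn1, -1.17 (SE 0.41) for Map2 and -1.38 (SE 0.47) for Mapt. Stmn1 and Stmn3 met the threshold, as did 7.78% of all genes in the lower direction. Stmn1, Stmn3, Stmn4, Map2 and Mapt did not overlap between these groups, and 16.7% of all genes were lower without overlap. Without control 1, or without combination 1, Stmn3 alone met the threshold. Of all genes 647 and 213 were then lower by it, against 1356 with all libraries. Leaving out control 1 gave -1.94 for Stmn3, -1.28 for Stmn1, -0.78 for Map2 and -1.12 for Mapt, and turned Tubb2b to 1.29 and Kif5c to 0.16; the other 4 genes were then at -1.28 to -0.42.

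**Figure D4:**
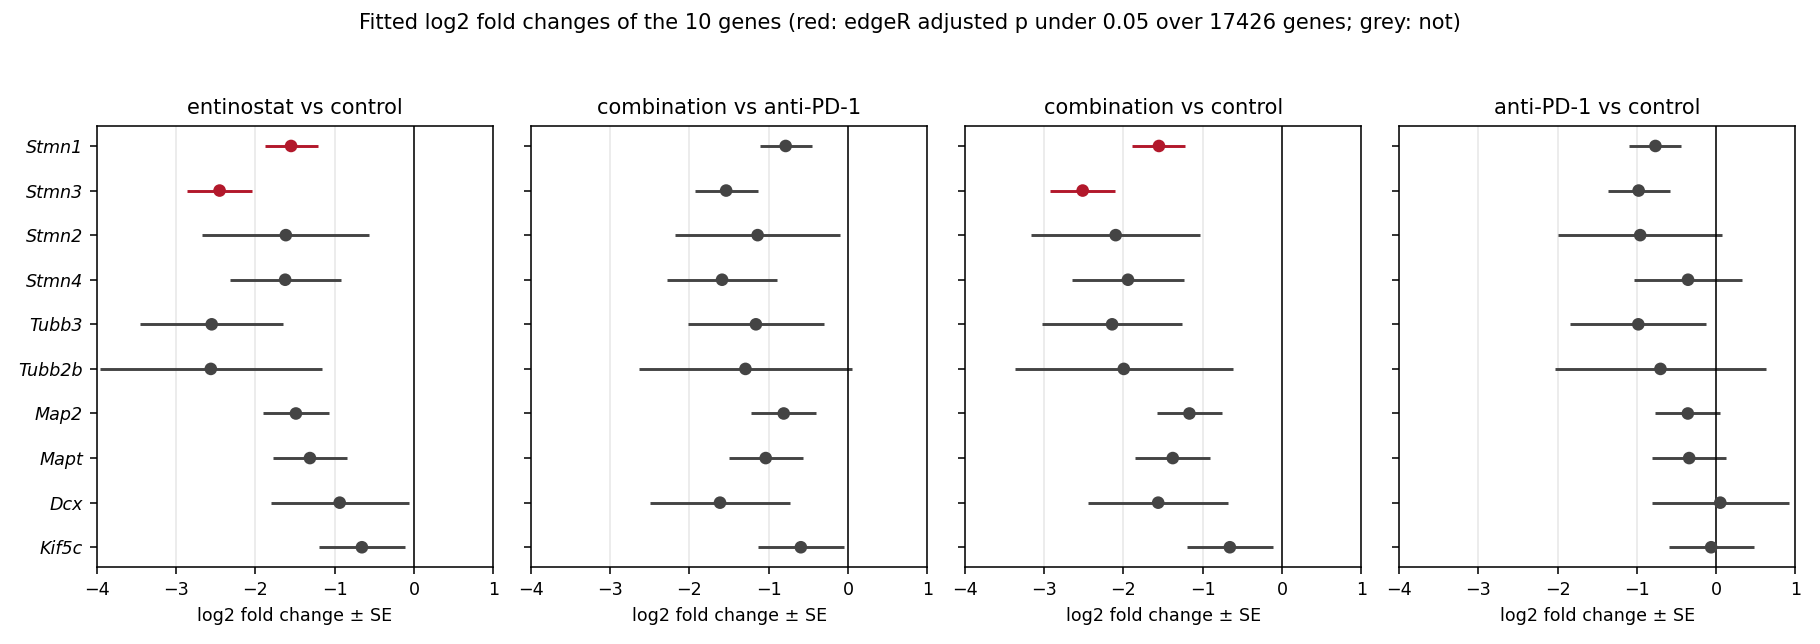
Points are fitted log2 fold changes and bars 1 SE either side, for the 10 genes in 4 comparisons, each with the treated group over the group named after it; red marks an edgeR adjusted p under 0.05 over 17426 genes. Stmn3 lies at -2.45, -1.54, -2.51 and -0.98 from left to right, and only Stmn1 and Stmn3 are red, in the comparisons of entinostat and of the combination with control.

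Anti-PD-1 alone against control tests a contrast in which entinostat plays no part. Stmn1 was at 705 ± 183 CPM in anti-PD-1 and 1199 ± 377 CPM in control libraries (SD, n = 3 each), without overlap, or -0.77 on the log2 scale (SE 0.33, edgeR adjusted p = 0.295); 10.7% of all genes were lower without overlap. Stmn3 was at 126 ± 39.2 CPM in anti-PD-1 and 248 ± 146 CPM in control libraries, with overlap, at -0.98 (SE 0.39, edgeR adjusted p = 0.268). Values for Map2 (-0.36), Mapt (-0.34), Stmn4 (-0.35), Dcx (0.05) and Kif5c (-0.06) were within 1 SE of 0. Without control 1 the values were -0.49 (SE 0.34) for Stmn1, -0.40 (SE 0.32) for Stmn3 and -0.08 for Mapt, and those of the other 7 genes were above 0, from 0.03 for Map2 to 2.58 for Tubb2b. None of the 10 met the threshold with edgeR or DESeq2, and edgeR called 0.00574% of all genes. At an unadjusted edgeR p under 0.05, 2 were lower with all libraries, as were 10.2% of all genes.

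Adding the antibody to entinostat gave small differences with wide errors. Stmn1 averaged 409 ± 147 CPM in combination and 409 ± 113 CPM in entinostat libraries, and Stmn3 43.4 ± 13.7 CPM in combination and 45.3 ± 2.71 CPM in entinostat libraries (SD, n = 3 each). Log2 fold changes were -0.00 (SE 0.33) for Stmn1 and -0.06 (SE 0.39) for Stmn3, and ran from -0.63 for Dcx to 0.57 for Tubb2b; the adjusted p was 1 for each of the 10 genes in edgeR's test, 0 had an unadjusted p under 0.05, and DESeq2 called none. The interaction, which asks whether entinostat's effect differed with and without the antibody, was 0.91 (SE 0.55) for Stmn3, 0.76 (SE 0.46) for Stmn1 and 0.68 (SE 0.58) for Map2, with edgeR adjusted p from 0.871 to 0.999 over the 10 genes. Neither the interaction nor the anti-PD-1 main effect called any of the 10 in edgeR or DESeq2, with 0 at an unadjusted edgeR p under 0.05. In edgeR 0% of all genes were called in each of these 3 comparisons.

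In order of mean CPM over all libraries, combination and entinostat libraries were the 2 lowest groups and anti-PD-1 and control the 2 highest for all 10 genes. The share of all genes with this order was not counted. Without control 1 it fails for Tubb2b and Kif5c, where the 2 remaining controls averaged 30.7 and 181 CPM. Combination averaged 74.9 and 204 CPM of these 2 genes, and entinostat 50.6 and 204 CPM. The 2 entinostat-treated groups differed from each other by less than the larger of their SDs for every gene. Control was above anti-PD-1 for 9 of the 10 genes, the exception being Dcx, at 175 ± 101 CPM in anti-PD-1 and 169 ± 146 CPM in control libraries. That order rests in part on control 1. With control 1 left out, the 3 anti-PD-1 libraries averaged 184 CPM for Tubb2b, 192 for Tubb3 and 308 for Kif5c, above the 2 remaining controls at 30.7, 115 and 181 CPM. Anti-PD-1 libraries were then also higher for Stmn2 (124 CPM in anti-PD-1, 94.4 in control), Stmn4 (45.2 in anti-PD-1, 36.5 in control) and Map2 (323 in anti-PD-1, 316 in control), so 6 of the 9 genes lost the order. Stmn1, Stmn3 and Mapt kept the controls on top, at 705, 126 and 92.7 CPM in anti-PD-1 and 988, 166 and 98.0 CPM in the 2 controls.

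Other genes of the microtubule system were followed as 4 lists, whose counts stand beside the 6.74% of all genes lower and 3.87% higher in the main effect. Of 16 further tubulin genes, 15 were tested and 5 were lower over the 6 libraries with entinostat, none higher, the list's median being -0.69 on the log2 scale. Tubb4b, a beta-tubulin of many tissues, averaged 128 ± 21.6 CPM with and 313 ± 139 CPM without entinostat (SD, n = 6 each), or -1.20 on the log2 scale (SE 0.17, edgeR adjusted p = 0.0066). Tubb5, the main beta-tubulin of dividing cells, averaged 1062 ± 167 CPM with and 2198 ± 765 CPM without, at -1.02 (SE 0.19, edgeR adjusted p = 0.012). Tuba1b, an alpha-tubulin of dividing cells, was at -0.90 (SE 0.18, edgeR adjusted p = 0.015) and Tubb2a at -1.98 (SE 0.43, edgeR adjusted p = 0.019). Tuba1a, the main alpha-tubulin of neurons, was the fifth gene to pass, at -1.89 (SE 0.43, edgeR adjusted p = 0.022), with 8114.6 CPM in its highest library; its value was -1.38 without control 1. Tubulin genes share long stretches of sequence, so counts of single tubulins are uncertain. Of the 15, 4 were lower for entinostat alone against control, and 5 for the main effect without control 1. The number was 3 without entinostat 2, and 2 of the 15 were called higher without control 3.

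Among 28 other microtubule-associated proteins, 3 were lower with entinostat and none higher, a share near that of all genes, with a median of -0.17. They were Dpysl4, a collapsin response mediator of growing axons, at -1.60 (SE 0.31, edgeR adjusted p = 0.013), and the plus-end proteins Mapre1 at -0.62 (SE 0.15, edgeR adjusted p = 0.026) and Mapre2 at -0.58 (SE 0.17, edgeR adjusted p = 0.048). Dpysl4 averaged 19.8 ± 8.03 CPM with and 60.3 ± 18.1 CPM without entinostat (SD, n = 6 each), with no overlap. Of 16 motor genes for transport, 2 were lower, both of the dynein complex: Dync1li1 at -0.66 (SE 0.13, edgeR adjusted p = 0.014) and the neuronal intermediate chain Dync1i1 at -2.55 (SE 0.57, edgeR adjusted p = 0.021), which had only 0.885 ± 0.478 CPM with and 5.96 ± 6.78 CPM without entinostat. Dync1i1 was at -1.96 without control 1. The motor list's median was -0.26. Of 25 genes that sever, modify or fold tubulin, 4 were lower and 1 higher, with a median of -0.24. Lower were Ttl, the tubulin tyrosine ligase (-0.80, SE 0.17, edgeR adjusted p = 0.017), Ttll3, a glycylase (-0.54, SE 0.13, edgeR adjusted p = 0.026), Ccdc23, the older symbol of the vasohibin partner Svbp (-0.67, SE 0.17, edgeR adjusted p = 0.030), and Spast, the severing enzyme spastin (-0.42, SE 0.11, edgeR adjusted p = 0.035). Higher was Ttll5, a glutamylase (0.60, SE 0.16, edgeR adjusted p = 0.033). No gene of these 3 lists met the threshold for entinostat alone against control. Mapre2, Spast and Ttll5 did not pass without control 1. With a library left out, the number lower was 1 to 3 for the associated proteins, 1 to 3 for the motors and 1 to 7 for the last list, which had 1 lower without combination 1, combination 3, entinostat 2 or entinostat 3 and 7 lower without control 3.

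**Figure D5:**
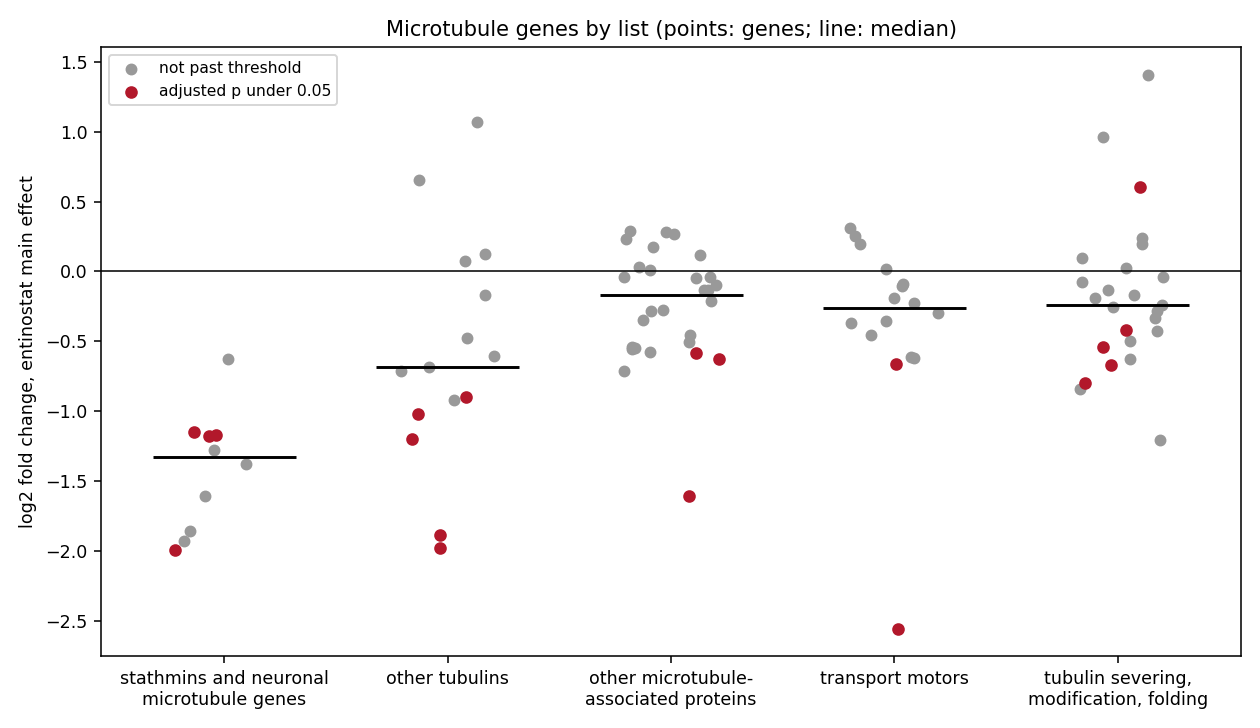
Each point is a gene's fitted log2 fold change for the entinostat main effect, by list, with a line at the list's median and red for an edgeR adjusted p under 0.05. The medians are -1.33 for the stathmins and neuronal microtubule genes, -0.69 for other tubulins, -0.17 for other microtubule-associated proteins, -0.26 for transport motors and -0.24 for genes that sever, modify or fold tubulin.

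Lists of cell identity and division were followed in the same comparison. Of 17 neuroendocrine markers, 5 were lower with entinostat and none higher (Uchl1, Calca, Scg2, Scg5 and Elavl4); the list's mean log2 CPM was 4.25 to 5.56 with and 5.34 to 5.94 without entinostat. The alveolar list spanned 2.13 to 5.00 with and -0.999 to 4.48 without entinostat, and none of its 16 genes met the threshold. For the peripheral neuron list the range was 1.10 to 4.01 with and 1.47 to 3.62 without, with 0 of 8 tested genes past the threshold. Of 15 mitosis genes, 4 were lower (Cdk1, Ccnb2, Birc5 and Cdc20), and the mean log2 CPM was 6.44 to 6.81 with and 6.58 to 7.40 without entinostat. Scg2 and Ccnb2 did not pass without control 1. Fibroblast markers were the only cell type list with a gene called higher: 1 of 7, Pdgfra, at 1.18 (SE 0.33, edgeR adjusted p = 0.043, and 0.051 without control 1), with a list median of 0.93. In the combination against control 2 of the 7 were higher, as were 677 of all 17426 genes, and the list's median was 1.47. The fibroblast list's mean log2 CPM was 5.04 to 6.66 with and 4.08 to 5.59 without entinostat. Macrophage and endothelial lists had main effect medians of 0.57 and 0.49 with no gene past the threshold. The part of these in the values above was not tested. The share of counts in 3 structural RNAs (Rpph1, Rn45s and Rmrp), a mark of library make-up, was 17.7% to 18.05% in combination, 15.2% to 19.3% in entinostat, 20.5% to 36.4% in anti-PD-1 and 7.84% to 13.2% in control libraries.

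Rest, the repressor of neuronal genes outside neurons, had 14.0, 8.63 and 9.40 CPM in combination, 11.3, 8.73 and 3.73 CPM in entinostat, 10.5, 6.74 and 3.14 CPM in anti-PD-1, and 1.25, 4.47 and 1.72 CPM in control libraries. Its main effect for entinostat was 1.16 (SE 0.42, edgeR adjusted p = 0.0908), so it did not meet the threshold, and anti-PD-1 libraries overlapped those with entinostat. In the combination against control it was higher, at 2.10 (SE 0.60, edgeR adjusted p = 0.0455). Myc, the driver of the model, averaged 213 ± 41.4 CPM with and 97.7 ± 37.8 CPM without entinostat (SD, n = 6 each), at 1.14 (SE 0.22, edgeR adjusted p = 0.014); the row may hold reads of both the engineered and the native allele.

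Across the 12 libraries the 10 genes varied together, with Pearson r of log2 CPM from 0.48 for Tubb2b and Mapt to 0.94 for Stmn1 and Stmn3. These points share treatment, tumour content and sequencing depth, and the values are a description. Of 13115 genes whose mean log2 CPM was 1 or more, the 5 most like Stmn1 were Tubb5 (r = 0.98), Ubb, Tceb2, Fam220a and Actr1a (0.95 to 0.96). For Stmn3 they were Acat2 (r = 0.99), Fam220a, Dut, Actr1a and Bok (0.98 each), so that Fam220a and Actr1a stand in both lists. For Stmn2 they were Stau1 (r = 0.97), Nradd, Efna2, Sv2b and Phc2 (0.89 to 0.93), and for Map2 Gp1bb (r = 0.95), Dfna5, Sept5, Ap3b2 and Brsk1 (0.93 each). Without the 2 libraries farthest from the median, r stayed at 0.96 for Stmn1 with Tubb5, 0.98 for Stmn3 with Acat2, 0.96 for Stmn2 with Stau1 and 0.90 for Map2 with Gp1bb. It was 0.76 for Stmn2 with Phc2 and 0.86 for Map2 with Sept5, the lowest for those genes. By Spearman's rank correlation, only 1, 2, 0 and 1 of the 5 genes were among the 5 most like Stmn1, Stmn2, Stmn3 and Map2, so the exact names depend on the measure.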

How the data were processed

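The authors deposited raw counts per gene for the 12 libraries in 1 table, all of whose columns entered the work. The submitters' processing notes name build mm9, STAR 2.5.4a, Trimmomatic 0.36, Trim Galore, R 3.5.1 and DESeq2 1.22.2, without their roles. Annotation, strand setting and the handling of reads with several matches are not stated there. The genome at hand is GRCm38, so coordinates are printed only for RefSeq promoter windows of GRCm38.p6, and exon lengths come from GENCODE M21. The members and gene lists were chosen with earlier results of these data known.

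The counts were fitted with edgeR 4.0.16 (R 4.3.3): filterByExpr, TMM factors, a model with a mean per group over all 12 libraries, and the robust quasi-likelihood F test, with Benjamini-Hochberg adjustment over 17426 genes in each of 8 comparisons and a threshold of 0.05. SE is the fold change divided by the square root of F. Log2 CPM used a prior count of 2. Scripts were tested on simulated data. Alternatives were RLE and upper quartile factors, no filter on low counts, DESeq2 1.42.0, halved counts, a replicate block, only the groups compared, and each library left out. Named beside the 10 genes were Rest, Myc, up to 4 genes per microtubule list past the entinostat threshold by smallest adjusted p (the fifth tubulin and the marker genes that passed were added after their values were seen), and the 5 genes most correlated with each of 4 members; ratios to Map4, Tubb5, Kif5b and Stmn1 were added during the analysis. At these depths the spread between libraries, not counting error, limits precision.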

Additional observations from a re-analysis of the deposited data

Results flagged for a closer look

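In the 6 libraries without entinostat, control 1 stood far above the other 5 for 4 of the genes: its gap to the next library, as a share of the whole range, was above Dixon's 95% critical value, which chance passes in about 1 in 20 groups. Control 1 had 533 CPM of Stmn2, 412 CPM of Stmn3, 909 CPM of Tubb3 and 835 CPM of Tubb2b. The other 5 libraries reached at most 169.9, 199, 286 and 275 CPM of these genes. They are values of a single library, so they are not 4 independent observations. No library passed the critical value in CPM among the 6 with entinostat, and 12 genes were examined in each set.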

How the results depend on the processing

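Of the 10 genes, 4 were lower for the entinostat main effect. The number was 2 with a replicate block, 6 with DESeq2, 3 with upper quartile factors, and 2 to 4 with a library left out (2 without combination 1, combination 2, entinostat 1, entinostat 2, anti-PD-1 1 or control 1). Of all genes 1175 were lower with all libraries and 635 with the replicate block. Among the fits with a library left out and 2 of the 10 genes lower, this ran from 394 (without combination 1) to 1068 (without combination 2). For entinostat against control 2 of the 10 genes were lower, with 5 in DESeq2, 0 when only the 2 groups were fitted, and 0 to 3 with a library left out (0 without entinostat 2 or entinostat 3, 1 without entinostat 1 or control 1). Of all genes 693 were lower with all libraries. That fell to 36 without entinostat 2, 1 without entinostat 3, 145 without entinostat 1 and 194 without control 1. With only the 2 groups fitted, 0 of 16600 genes were called. For the combination against control it was 2, with 5 in DESeq2, 0 when only the 2 groups were fitted, and 1 to 2 with a library left out (1 without combination 1 or control 1). For the combination against anti-PD-1 it was 0, and 1 in DESeq2. Of all genes DESeq2 called 11.4%, 8.77%, 12.1% and 1.45% lower in these 4 comparisons, in the order given, more than edgeR in each. Without control 1, entinostat against control gave 0.72 for Tubb2b and 0.17 for Kif5c, against -2.56 and -0.66 with it; over all libraries left out in turn the ranges were -4.30 to 0.72 and -0.95 to 0.17, and no other fold change of the 10 genes changed sign in the main effect, in entinostat against control or in the combination against anti-PD-1. The combination against control turned to 1.29 for Tubb2b and 0.16 for Kif5c without control 1. Why these values moved was not tested, except that fewer libraries entered the fits that leave some out. With upper quartile factors the main effect's median over all genes was 0.15 on the log2 scale, against 0.02 with TMM factors, and the split of all genes was 1046 higher and 632 lower, against 674 and 1175; all 10 genes stayed below 0, and with these factors 5 other tubulins, 2 associated proteins, 2 motors and 1 gene that modifies tubulin were lower, and 1 motor and 1 modifying gene higher. With the replicate block 1 associated protein and 2 modifying genes were lower. RLE factors, no filter on low counts and halved counts left the number of the 10 genes at 4 for the main effect.

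Replicate numbers did not pair the libraries: same-numbered libraries of different groups had residual correlations of -0.29 to 0.23, and 1 of 12 libraries correlated best with its own number. Among counts from 1 to 20, 65.3% to 77.2% were even, so both mates may have been counted. With 3 libraries a group, differences that did not pass may still exist.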
